A study of Mus musculus with 12 samples.

Results

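The set described here holds 10 genes for cell adhesion molecules, 6 of the immunoglobulin family (Cadm1, Ncam1, Vcam1, Icam1, Alcam and Mcam) and 4 cadherins (Cdh2, Cdh6, Cdh11 and Cdh13), chosen by gene symbol among the 25230 genes counted. They were measured by RNA-seq in mesangial cells (MMC) of the mouse kidney, the contractile cells that hold the capillaries of the glomerulus together. MMC came from wild-type (WT) mice or from the lncMGC-KO5 line (KO), and each genotype was serum-depleted (SD) or given TGF-β at 10 ng/ml for 24 h. This gave 4 groups of 3 libraries each, written below as genotype and treatment: WT-SD and WT-TGF for wild-type cells, KO-SD and KO-TGF for the mutant line. The KO mice carry a short CRISPR-Cas9 deletion at the start of lncMGC, the host transcript of the miR-379 cluster of microRNAs, and all KO cells stem from 1 mutant line. The study calls the samples of a group independent, but neither it nor the labels says whether they came from separate cultures or animals, so p-values measure only the spread between these libraries, which may be technical.

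Adhesion molecules of the immunoglobulin family carry immunoglobulin-like domains outside the cell and bind the same molecule, a related one or an integrin on a neighbouring cell. Classical cadherins bind their own kind in a calcium-dependent way, and their tails hold catenins, which link the junction to actin. Mesangial cells are mesenchymal, and such cells are known for cadherins of the Cdh2 and Cdh11 kind, while Vcam1 and Icam1 on glomerular cells are known as docking sites for leukocytes in inflamed kidneys.

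The libraries held 19898050 to 22827706 counts on genes, and TMM scaling factors ran from 0.900 to 1.09. The share of reads outside annotated exons differed between the groups without overlap, at 15.2% to 15.4% in WT-SD, 12.7% to 13.4% in KO-SD, 12.2% to 12.5% in WT-TGF and 10.3% to 10.9% in KO-TGF, so it moved with treatment and genotype, and its part in the results below was not tested. Replicate 1 of KO-SD stood further from its group than other libraries did, as the chi-square of its counts divided by the degrees of freedom was 5.20 and 4.91 against replicates 2 and 3, where the other 10 pairs of libraries within a group gave at most 2.95. Without it 8 in place of 9 adhesion genes were called for KO against WT in SD, the lost one being Cdh2 (0.06), and no other call of an adhesion gene in this text changed. No row of the counts is named lncMGC, and the deletion is therefore taken from the labels alone. Mirg, a gene of the microRNA region that lies outside the deleted bases, was at 2.33 ± 0.31 CPM in the WT-SD group and 3.67 ± 0.55 CPM in the KO-SD group (SD, n = 3 each), higher in the libraries labelled KO (log2 fold change 0.65, SE 0.16, adjusted p = 0.000153), and after TGF-β the difference of 0.25 (SE 0.14, adjusted p = 0.172) did not pass. KO stands below for the libraries labelled so. Of 8 mesangial markers 7 had a count: Pdgfrb was at 289 ± 4.17 CPM (WT-SD) and 306 ± 8.52 CPM (KO-SD), Acta2 at 1570 ± 64.0 and 3250 ± 63.8 CPM, whereas Des was at 7.68 ± 0.95 and 0.53 ± 0.02 CPM and Ren1 had no count in any library. The sum of all 8 was 2505 to 2642 CPM in WT-SD, 5580 to 5741 in WT-TGF, 4810 to 4974 in KO-SD and 10514 to 10601 in KO-TGF. Markers of other cell types also moved with genotype. The summed level of 8 macrophage markers was 26.7 to 28.6 CPM in WT-SD, 16.0 to 19.8 in WT-TGF, 2.06 to 2.22 in KO-SD and 0.801 to 1.44 in KO-TGF, with Adgre1, C1qa and Tyrobp at 0 in all KO libraries. For 7 endothelial markers the sum was 33.0 to 33.4, 20.1 to 22.5, 17.2 to 18.4 and 9.23 to 10.8 CPM in the same order, with Cdh5 at 0 in all but the KO-SD group. For 7 tubular markers it was 305 to 318, 131 to 145, 165 to 180 and 67.2 to 70.1 CPM, with Slc34a1 and Umod at 0 throughout. Pax8 made up most of this sum, at 241, 121, 157 and 64.3 CPM. For the 5 podocyte markers that were tested (Wt1, Synpo, Podxl, Magi2 and Cd2ap) it was 554 to 562, 547 to 561, 307 to 310 and 282 to 302 CPM, and all 5 were lower in KO in both conditions. For 5 fibroblast markers it was 4160 to 4529, 7788 to 8182, 9418 to 10460 and 15495 to 16102 CPM. In bulk RNA, fewer cells of a type and less RNA per cell cannot be told apart.

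Per exon length, the cadherins and Ncam1 made up most of the adhesion transcripts. In WT-SD the order by RPKM (counts scaled to exon length and library depth) was Cdh11 at 201 ± 3.0, Cdh6 at 102 ± 2.50, Ncam1 at 62.9 ± 0.97, Cdh2 at 42.0 ± 1.35, Mcam at 14.8 ± 0.56, Vcam1 at 10.8 ± 0.29, Cadm1 at 6.42 ± 0.29, Icam1 at 4.36 ± 0.21, Alcam at 4.14 ± 0.21 and Cdh13 at 0.077 ± 0.020. All neighbours in this order were apart in all libraries, except Icam1 and Alcam, whose libraries overlapped. In WT-TGF and in KO-TGF Ncam1 stood above Cdh6 and Mcam above Cdh2, Vcam1 and Icam1 stood at the eighth and the ninth place, and no neighbours in the order overlapped. In KO-SD Alcam, at 11.1 ± 0.46 RPKM, stood above Vcam1 at 8.59 ± 0.52, and Cadm1, at 0.55 ± 0.03, overlapped with Cdh13 at 0.61 ± 0.08 at the bottom of the list.

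After TGF-β, Cdh11 took a larger and Cdh2 a smaller share of the cadherin transcripts in both genotypes. Cdh11 made up 58.2% ± 0.42 of the summed RPKM of the 4 cadherins in WT-SD, 69.3% ± 0.26 in WT-TGF, 65.9% ± 0.42 in KO-SD and 73.5% ± 0.67 in KO-TGF (SD, n = 3 each). Cdh2 made up 12.2% ± 0.37 and 13.3% ± 0.27 in the SD groups of WT and KO, and 6.65% ± 0.26 and 6.76% ± 0.17 in their TGF groups. Cdh6 took 29.6% ± 0.24 and 24.0% ± 0.40 in WT-SD and WT-TGF, and 20.6% ± 0.31 and 19.7% ± 0.63 in KO-SD and KO-TGF. Among the 6 immunoglobulin family genes the summed RPKM was 103 ± 0.63 in WT-SD, 219 ± 2.88 in WT-TGF, 101 ± 1.23 in KO-SD and 248 ± 2.70 in KO-TGF, and Ncam1 alone made up 60.8% ± 0.59, 68.5% ± 0.44, 53.5% ± 0.08 and 72.9% ± 0.61 of it. Vcam1 went from 10.5% ± 0.35 of that sum in WT-SD to 0.94% ± 0.08 in WT-TGF. The shares are given as means with their SD and were not tested. They rest on exon lengths of the GENCODE annotation, which can differ from those of the RefSeq genes that were counted, and so does the order by RPKM.

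**Figure D1:**
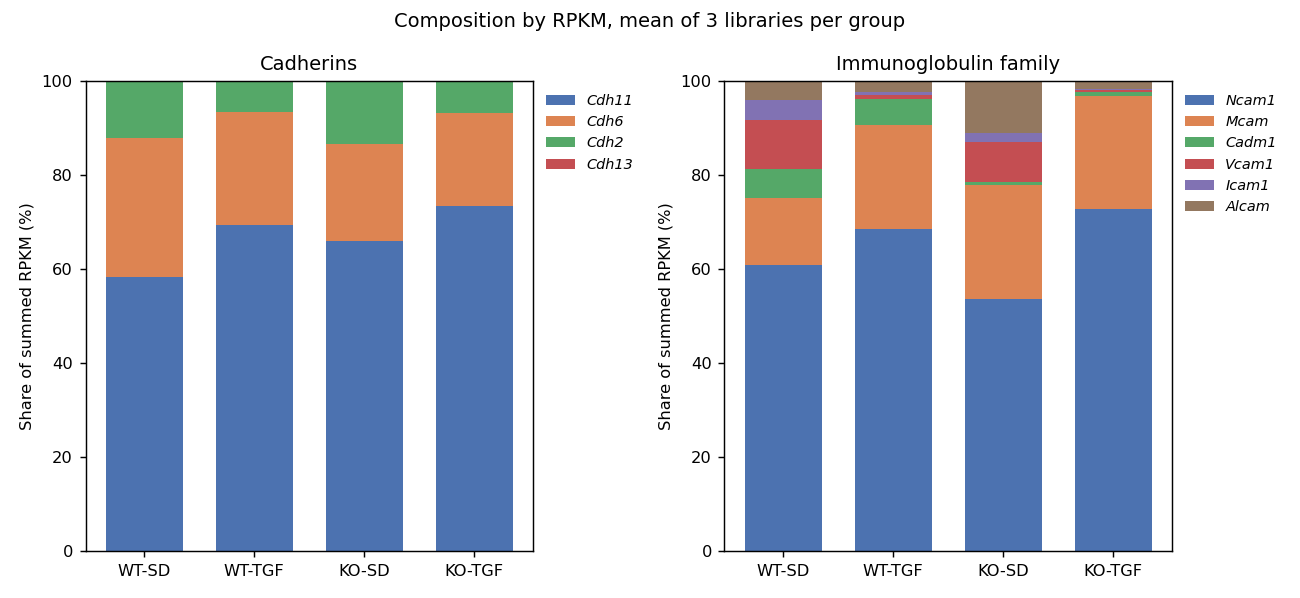
Stacked bars of each gene's share (%) of the summed RPKM of the 4 cadherins (left) and of the 6 immunoglobulin family genes (right), as the mean of 3 libraries in each of the 4 groups. The Cdh2 part of the left bars is 12.2% in WT-SD and 13.3% in KO-SD against 6.65% in WT-TGF and 6.76% in KO-TGF, and the Vcam1 part of the right bars is 10.5% in WT-SD and 0.94% in WT-TGF.

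The test was edgeR's quasi-likelihood test on the counts of 11477 genes with an RPKM above 1 in at least 1 library, with Benjamini-Hochberg adjustment over all of them, and a gene was called at a false discovery rate (FDR) below 5%. Of the 10 adhesion genes 9 were tested. Cdh13 stayed below the RPKM limit and was taken from a second fit, which held every one of the 18565 genes with a count. All log2 fold changes and adjusted p-values below come from these fits, and those of Mirg above come from the second. The p-values of the 2 fits are not on the same scale and cannot be ranked against each other.

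With TGF-β in WT MMC, Cadm1, Ncam1, Mcam, Alcam and Cdh11 rose, Vcam1, Icam1 and Cdh2 fell, and Cdh6 did not pass the test. These are 8 of 9 tested genes, close to the 72.5% of all tested genes that passed (35.9% higher and 36.5% lower). With a fold change above 2 as well, Ncam1 and Mcam rose and Vcam1 and Icam1 fell, 4 of 9 genes where 9.85% of all genes did so (4.19% higher and 5.66% lower). The median log2 fold change was 0.32 over the 9 genes and -0.01 over all genes. In KO MMC all 9 passed, where 74.0% of all genes did (35.0% higher and 39.0% lower): Cadm1, Ncam1, Mcam and Cdh11 rose, Vcam1, Icam1, Alcam and Cdh2 fell, and Cdh6 rose by 0.08 on the log2 scale, a direction that turned with scaling by library size alone (-0.13). A fold change above 2 was reached by 6 of 9, 3 higher (Cadm1, Ncam1, Mcam) and 3 lower (Vcam1, Icam1, Alcam), where 13.5% of all genes reached it (4.42% higher and 9.04% lower), and the medians were 0.08 and -0.02.

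Between genotypes, all 9 genes differed in each condition. In SD, Alcam, Mcam, Cdh2 and Cdh11 were higher in KO and Cadm1, Ncam1, Vcam1, Icam1 and Cdh6 lower, where 55.9% of all tested genes passed (30.6% higher and 25.3% lower). With a fold above 2 only Alcam was higher and only Cadm1 and Icam1 lower, 3 of 9 where 6.36% of all genes passed (3.24% higher and 3.12% lower). After TGF-β, Ncam1 and Mcam were higher in KO and the other 7 lower, where 55.1% of all genes passed (27.2% higher and 27.9% lower). With a fold above 2 this left Cadm1 and Icam1, both lower, where 5.96% of all genes passed (1.40% higher and 4.56% lower). SD and TGF-β libraries did not overlap for 8 of the 9 genes in WT (75.2% of all genes) and for 8 of 9 in KO (74.3%), and the genotypes did not overlap for 8 of 9 in SD (59.2% of all genes) and for all 9 after TGF-β (61.6%). The median log2 fold change over the 9 genes was -0.22 in SD and -0.32 after TGF-β, against 0.02 and -0.00 over all genes. These 4 comparisons share their groups (WT-SD, for one, is the base of the TGF-β response in WT and of the KO difference in SD), so their values stand side by side and are not independent of each other.

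**Figure D2:**
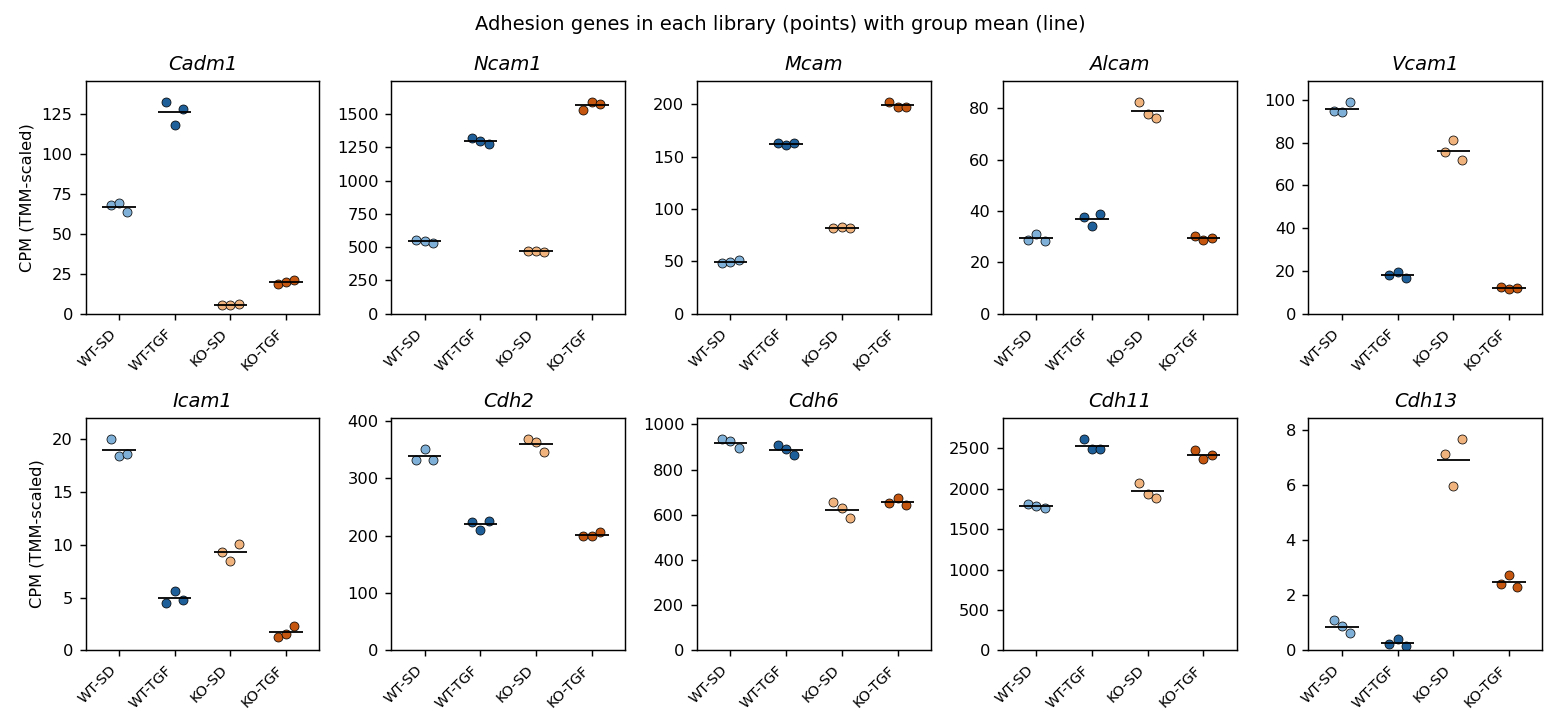
CPM after TMM scaling (y axis, linear and starting at 0) of the 10 adhesion genes in each library (points), by group (x axis), with a line at the mean of 3 libraries. The Alcam points of KO-SD (76.0 to 82.3 CPM) stand above those of the other groups, and the Cadm1 points of KO-SD (5.41 to 6.01 CPM) lie below those of WT-SD (63.7 to 69.5 CPM).

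Vcam1 binds the leukocyte integrin made of Itga4 and Itgb1, and it had the most negative log2 fold change with TGF-β of the 10 genes in each genotype. It was at 94.7, 94.1 and 98.9 CPM in the WT-SD libraries, 18.0, 19.7 and 16.7 in WT-TGF, 75.4, 81.2 and 72 in KO-SD and 12.7, 11.5 and 11.9 in KO-TGF. No TGF-β library came near an SD library, and within each condition the KO libraries lay below those of WT without overlap. The log2 fold change with TGF-β was -2.40 (SE 0.05, adjusted p = 7.61e-27) in WT and -2.66 (SE 0.06, adjusted p = 1.57e-26) in KO, that is 5.26-fold and 6.33-fold lower. KO was below WT by a log2 fold change of -0.33 (SE 0.04, adjusted p = 4.01e-08) in SD and of -0.60 (SE 0.08, adjusted p = 6.80e-08) after TGF-β.

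Icam1, the ligand of the leukocyte integrins LFA-1 and Mac-1, fell with TGF-β and was lower in KO. Its level was 20.05, 18.4 and 18.6 CPM in WT-SD, 4.54, 5.66 and 4.74 in WT-TGF, 9.33, 8.50 and 10.0 in KO-SD, and 1.28, 1.60 and 2.31 in KO-TGF, the last from 24 to 44 counts per library. All 4 groups were apart from each other. With TGF-β the log2 fold change was -1.93 (SE 0.10, adjusted p = 3.32e-17) in WT and -2.42 (SE 0.15, adjusted p = 2.49e-15) in KO. KO against WT gave -1.03 (SE 0.09, adjusted p = 1.23e-11) in SD and -1.52 (SE 0.17, adjusted p = 5.11e-09) after TGF-β. Icam5, an adhesion gene of the same family that starts 3224 bases beyond the end of Icam1 and was chosen after its values were seen, gave log2 fold changes of -1.34 (SE 0.13) with TGF-β in WT, -1.11 (SE 0.20) with TGF-β in KO, and -1.38 (SE 0.13) and -1.15 (SE 0.20) for KO against WT in SD and after TGF-β, all past the test. The other 3 of the 4 nearest tested genes (Mrpl4, S1pr2 and Raver1) ran from -0.30 to 0.11 with TGF-β in WT, -0.12 to 0.25 with TGF-β in KO, -0.21 to 0.24 for KO in SD and 0.01 to 0.28 for KO after TGF-β. The macrophage, endothelial, tubular and podocyte marker sums given above also lay below WT-SD in the KO-SD group and, in KO, lower still with TGF-β. The mesangial and fibroblast sums, the latter almost all Col1a1, went the other way. The part of these cell types in the lower Icam1 and Vcam1 was not tested.

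The promoters of 3 adhesion genes are shown, out of 4 for which the promoter table held an entry, because their responses to TGF-β were large or differed in direction: Icam1 fell in both genotypes, Mcam rose in both, and Alcam moved in opposite directions. Each line holds the 250 bases before the gene's start as RefSeq gives it in GRCm38.p6, 5' to 3' on the gene's strand, at chr9:21015690-21015939 (+) for Icam1, chr9:44134408-44134657 (+) for Mcam and chr16:52453082-52453331 (-) for Alcam. The sequence of Cdh6, the remaining one, held none of the motifs marked here. Its window, at chr15:13173676-13173925 (-), lies within the span of the gene given below and not before its outer start. Capitals mark a match to GGAANNTCC (an NF-kappaB-like sequence), TGACGTCA (the cAMP response element), TGANTCA (AP-1) or CAGAC (the core SMAD-binding sequence), searched on both strands.
Icam1 promoter: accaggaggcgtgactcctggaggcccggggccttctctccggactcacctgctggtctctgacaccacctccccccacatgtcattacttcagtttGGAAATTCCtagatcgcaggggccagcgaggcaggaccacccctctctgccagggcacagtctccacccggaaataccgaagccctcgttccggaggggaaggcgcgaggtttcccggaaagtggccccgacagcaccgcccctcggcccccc
Mcam promoter: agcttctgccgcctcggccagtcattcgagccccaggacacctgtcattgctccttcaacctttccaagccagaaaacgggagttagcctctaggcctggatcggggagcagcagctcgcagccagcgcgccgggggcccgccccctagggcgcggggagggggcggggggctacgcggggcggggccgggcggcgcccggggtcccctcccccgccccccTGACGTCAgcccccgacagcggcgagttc
Alcam promoter: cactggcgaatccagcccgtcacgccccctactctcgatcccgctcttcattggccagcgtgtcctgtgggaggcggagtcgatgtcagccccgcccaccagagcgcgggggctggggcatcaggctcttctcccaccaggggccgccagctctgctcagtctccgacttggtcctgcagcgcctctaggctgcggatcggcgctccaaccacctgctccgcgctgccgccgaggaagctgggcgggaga
Icam1 held 1 match to GGAANNTCC, which began 153 bases before the start, and 3.59% of the 32851 windows of the same length held such a match. Mcam held 1 TGACGTCA, which began 29 bases before the start, as 1.55% of windows did somewhere in their length. Alcam held none of these 4 sequences. The E-box CANNTG, which is not marked in capitals and stood in 66.2% of all windows, began 40 bases before the start of Alcam, 212 before that of Mcam, and 204 and 174 before that of Icam1. TGANTCA stood in 6.75% and CAGAC in 42.2% of all windows and in none of these 3. A match is a description of the letters in the window and not a binding site.

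Ncam1, which binds itself between cells, was the most abundant gene of the immunoglobulin family in the set. Its level was 550, 549 and 535 CPM in WT-SD, 1320, 1297 and 1277 in WT-TGF, 473, 470 and 462 in KO-SD, and 1530, 1588 and 1572 in KO-TGF. KO libraries were below WT in SD and above WT after TGF-β, without overlap in either condition. TGF-β raised Ncam1 by a log2 fold change of 1.25 (SE 0.02, adjusted p = 9.60e-29) in WT and 1.74 (SE 0.02, adjusted p = 2.84e-32) in KO. For KO against WT the log2 fold change was -0.22 (SE 0.02, adjusted p = 1.52e-09) in SD and 0.27 (SE 0.02, adjusted p = 7.59e-12) after TGF-β.

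Mcam (CD146), a marker of pericytes and endothelial cells, rose most with TGF-β in WT among the 9 tested genes. It was at 48.1, 49.2 and 51.7 CPM in WT-SD, 163, 161 and 163 in WT-TGF, 81.9, 82.5 and 82.3 in KO-SD, and 202, 198 and 197 in KO-TGF. The 4 groups did not overlap, and KO was the higher genotype in both conditions. The TGF-β response was a log2 fold change of 1.71 (SE 0.03, adjusted p = 2.85e-28) in WT and 1.28 (SE 0.03, adjusted p = 7.03e-26) in KO. Counted in CPM the rise was 113 for WT and 117 for KO, from a higher start in KO. KO exceeded WT by 0.73 (SE 0.03, adjusted p = 1.13e-17) in SD and 0.29 (SE 0.03, adjusted p = 2.40e-10) after TGF-β on the log2 scale. The endothelial marker sum was lower with TGF-β and lower in KO, and almost all of it was Ehd3 (32.7 CPM in WT-SD and 17.1 in KO-SD). The other endothelial markers were each below 1 CPM, with Pecam1 at 0.060 and 0.155 CPM, Tek at 0.076 and 0.218, and Kdr at 0.285 and 0.375 in WT-SD and KO-SD, and Cdh5 had at most 2 counts in any library. Their part in the level of Mcam was not tested.

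Cadm1, a nectin-like molecule that binds itself and other molecules of its family, showed the largest difference between genotypes among the 9 tested genes. The libraries of WT-SD held 68.0, 69.5 and 63.7 CPM and those of KO-SD 5.79, 5.41 and 6.01, from 1397 to 1599 and from 112 to 131 counts. After TGF-β the levels were 132, 118 and 128 CPM in WT and 18.9, 19.9 and 21.4 in KO. Every KO library, treated or not, lay below every WT library. KO against WT gave a log2 fold change of -3.55 (SE 0.07, adjusted p = 1.55e-27) in SD, 11.7-fold lower, and of -2.65 (SE 0.05, adjusted p = 1.50e-27) after TGF-β, 6.29-fold lower. TGF-β raised Cadm1 by 0.91 (SE 0.04, adjusted p = 1.35e-18) in WT and by 1.80 (SE 0.09, adjusted p = 5.85e-18) in KO on the log2 scale, while counted in CPM it rose by 59.2 (WT) and 14.3 (KO). Cadm1 stands on a list that the study chose on these same samples, so its direction here is not independent evidence. Cadm1 lies at chr9:47530170-47862280 (+), and the 4 nearest tested genes (Rexo2, Rbm7, Bud13 and Zpr1, 606232 to 1247527 bases away) ran from -0.05 to 0.16 in log2 fold change for KO against WT in SD and from -0.05 to 0.30 after TGF-β. With TGF-β these 4 genes ran from 0.01 to 0.88 in WT and from -0.02 to 1.06 in KO, Zpr1 being the highest in each. In the interaction they ran from -0.21 to 0.18, and only Zpr1 (0.18, SE 0.07) passed, with the sign of Cadm1. The macrophage, endothelial, tubular and podocyte marker sums were lower in KO along with Cadm1. The mesangial sum and the fibroblast sum, the latter almost all Col1a1, were higher. With TGF-β the macrophage, endothelial and tubular sums were lower in both genotypes, where Cadm1 was higher. The part of these cell types in the level of Cadm1 was not tested.

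Alcam (CD166), which binds itself and the lymphocyte receptor CD6, was the only gene of the set called in opposite directions in the 2 genotypes. It was at 28.7, 31.2 and 28.4 CPM in WT-SD, 37.7, 34.1 and 38.9 in WT-TGF, 82.3, 77.9 and 76.0 in KO-SD, and 30.3, 28.6 and 29.4 in KO-TGF. KO-SD stood alone at the top, KO-TGF overlapped with WT-SD, and WT-TGF lay a little above both. TGF-β gave a log2 fold change of 0.32 (SE 0.05, adjusted p = 3.05e-06) in WT and -1.42 (SE 0.05, adjusted p = 1.08e-21) in KO. KO was above WT by 1.42 (SE 0.05, adjusted p = 1.77e-21) in SD, 2.67-fold higher, and below it after TGF-β, with a log2 fold change of -0.32 (SE 0.05, adjusted p = 8.00e-06). Alcam lies at chr16:52248996-52453081 (-). The nearest tested gene is Cblb, 40949 bases away, and the 4 nearest ran from -0.27 to 0.05 for KO against WT in SD, from -0.57 to 0.26 after TGF-β, from -0.67 to -0.05 with TGF-β in WT and from -0.96 to 0.16 with TGF-β in KO. Cblb gave -0.30 (SE 0.04) for KO against WT after TGF-β, beside -0.32 for Alcam, and -0.28 (SE 0.04) with TGF-β in KO. For KO against WT in SD Cblb gave -0.10 (SE 0.03) and with TGF-β in WT -0.07 (SE 0.03), against the direction of Alcam in both. In the interaction Cblb (-0.20, SE 0.05) and Nfkbiz (-0.31, SE 0.05), which lies 3358294 bases away, passed with the sign of Alcam. Dubr (0.22, SE 0.10) and Nxpe3 (0.15, SE 0.20) had the other sign and did not pass.

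Cdh11, the cadherin of mesenchymal cells that is also known as OB-cadherin, was the most abundant gene of the set in every group. It was at 1815, 1783 and 1761 CPM in WT-SD, 2615, 2486 and 2492 in WT-TGF, 2071, 1938 and 1886 in KO-SD, and 2477, 2363 and 2412 in KO-TGF. Both TGF groups were above both SD groups, and the genotypes stood close together. The TGF-β response was 0.50 (SE 0.03, adjusted p = 8.28e-17) in WT and 0.30 (SE 0.03, adjusted p = 1.81e-11) in KO on the log2 scale. KO differed from WT by 0.14 (SE 0.03, adjusted p = 5.69e-05) in SD and by -0.07 (SE 0.03, adjusted p = 0.0348) after TGF-β. The call after TGF-β was lost in 7 of 20 alternatives, among them without WT-TGF replicate 1 (-0.04) and without KO-TGF replicate 1 (-0.07), 2 (-0.03) or 3 (-0.05).

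Cdh2 (N-cadherin), which joins mesenchymal and nerve cells, fell with TGF-β. It was at 333, 351 and 332 CPM in WT-SD, 223, 210 and 226 in WT-TGF, 368, 362 and 346 in KO-SD, and 200, 199 and 206 in KO-TGF. SD and TGF-β libraries were apart, and the SD libraries of WT and KO overlapped. The log2 fold change with TGF-β was -0.62 (SE 0.03, adjusted p = 9.62e-18) in WT and -0.83 (SE 0.03, adjusted p = 6.37e-21) in KO. KO against WT gave 0.08 (SE 0.03, adjusted p = 0.0165) in SD and -0.13 (SE 0.03, adjusted p = 0.00110) after TGF-β. The SD call was lost in 9 of 20 alternatives, whose values ran from 0.01 to 0.11 over all 20. Among the 9 were the fits without WT-SD replicate 1 (0.07) or 3 (0.07), without KO-SD replicate 1 (0.06), and without any 1 of the KO-TGF replicates (0.06 each).

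Cdh6 (K-cadherin), first known from the kidney, was lower in KO in both conditions. It was at 935, 928 and 893 CPM in WT-SD, 908, 893 and 865 in WT-TGF, 655, 628 and 587 in KO-SD, and 653, 672 and 645 in KO-TGF. All WT libraries were above all KO libraries, and within each genotype the SD and TGF-β libraries overlapped. KO against WT gave a log2 fold change of -0.56 (SE 0.03, adjusted p = 1.58e-16) in SD and -0.44 (SE 0.03, adjusted p = 8.10e-14) after TGF-β. The TGF-β response was -0.05 (SE 0.03, adjusted p = 0.136) in WT and 0.08 (SE 0.03, adjusted p = 0.0225) in KO. The call in KO was lost without KO-SD replicate 3 (0.03) and with upper quartile scaling (0.00). With library size alone the value in KO was -0.13, past the test in the other direction, and in WT -0.20 (adjusted p = 1.79e-07; over all alternatives 1.79e-07 to 0.627).

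Cdh13 (T-cadherin), which lacks a tail and is anchored by lipid, was the lowest of the set by RPKM in WT-SD, WT-TGF and KO-TGF and overlapped with Cadm1 in KO-SD. Its counts were 24, 20 and 14 in WT-SD, 5, 9 and 3 in WT-TGF, 155, 123 and 167 in KO-SD, and 45, 51 and 44 in KO-TGF. Every KO library was above every WT library, and TGF-β libraries were below SD libraries in each genotype. In the fit without the RPKM limit, KO against WT gave a log2 fold change of 2.99 (SE 0.17, adjusted p = 1.32e-64) in SD and 3.19 (SE 0.29, adjusted p = 3.43e-26) after TGF-β, and TGF-β gave -1.68 (SE 0.37, adjusted p = 1.39e-05) in WT and -1.48 (SE 0.14, adjusted p = 8.31e-24) in KO. These adjusted p-values do not make Cdh13 more certain than the tested genes. Cadm1, with a larger difference in SD (-3.55) and a smaller SE (0.07), had adjusted p = 1.55e-27 in the first fit. At 0.26 ± 0.13 CPM in WT-TGF the level of Cdh13 there rests on 17 counts over 3 libraries.

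**Figure D3:**
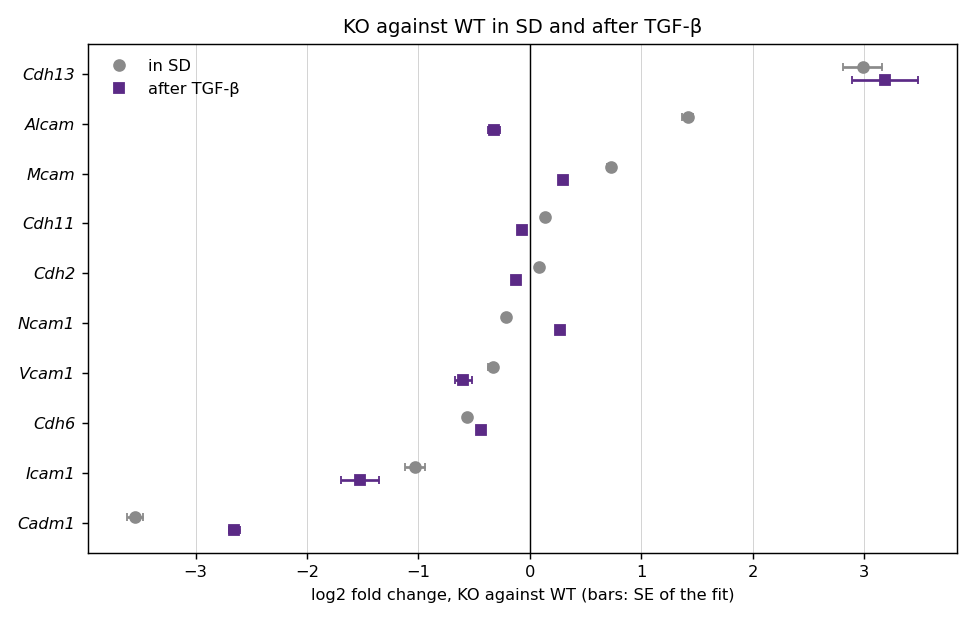
Log2 fold change of KO against WT (x axis) for the 10 adhesion genes (y axis), in SD (grey circles) and after TGF-β (purple squares), with bars for the SE of the fit. Cadm1 lies at -3.55 in SD and -2.65 after TGF-β, Cdh13 at 2.99 and 3.19, and Alcam changes side from 1.42 to -0.32.

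Whether the response to TGF-β differed between the genotypes was tested as an interaction (the log2 response in KO minus that in WT). It was called for 8 of 9 tested genes, 3 higher and 5 lower, where 25.4% of all tested genes passed (8.77% higher and 16.6% lower). With a size above 2-fold, 1 of 9 remained, on the lower side, where 2.74% of all genes did (0.340% higher and 2.40% lower). The rise was larger in KO for Cadm1 (0.89, SE 0.10, adjusted p = 2.37e-08) and Ncam1 (0.49, SE 0.03, adjusted p = 2.61e-13), and smaller for Mcam (-0.43, SE 0.04, adjusted p = 5.43e-09) and Cdh11 (-0.20, SE 0.04, adjusted p = 9.72e-05). The fall of Cdh2 was larger in KO, with a difference of -0.21 (SE 0.04, adjusted p = 0.000366). For Alcam the difference was -1.74 (SE 0.07, adjusted p = 6.53e-18), the only one above 2-fold. For Vcam1 it was -0.27 (SE 0.09, adjusted p = 0.0226), a call lost without WT-TGF replicate 2 (-0.20), KO-SD replicate 2 (-0.22), KO-TGF replicate 2 (-0.20) or 3 (-0.22), and with DESeq2 (-0.24). For Cdh6 it was 0.12 (SE 0.04, adjusted p = 0.0256), lost without WT-SD replicate 1 (0.11) or 2 (0.11), WT-TGF replicate 3 (0.11) or KO-SD replicate 3 (0.08), and with library size alone (0.08). Icam1, at -0.49 (SE 0.20, adjusted p = 0.0690), did not pass, and it passed when KO-SD replicate 2 (-0.55) or replicate 3 of KO-TGF (-0.72) was left out, with library size alone (-0.54), with the likelihood ratio test (-0.49) and with no filter (-0.51). Cdh13, at 0.20 (SE 0.39, adjusted p = 0.899), did not pass either.

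**Figure D4:**
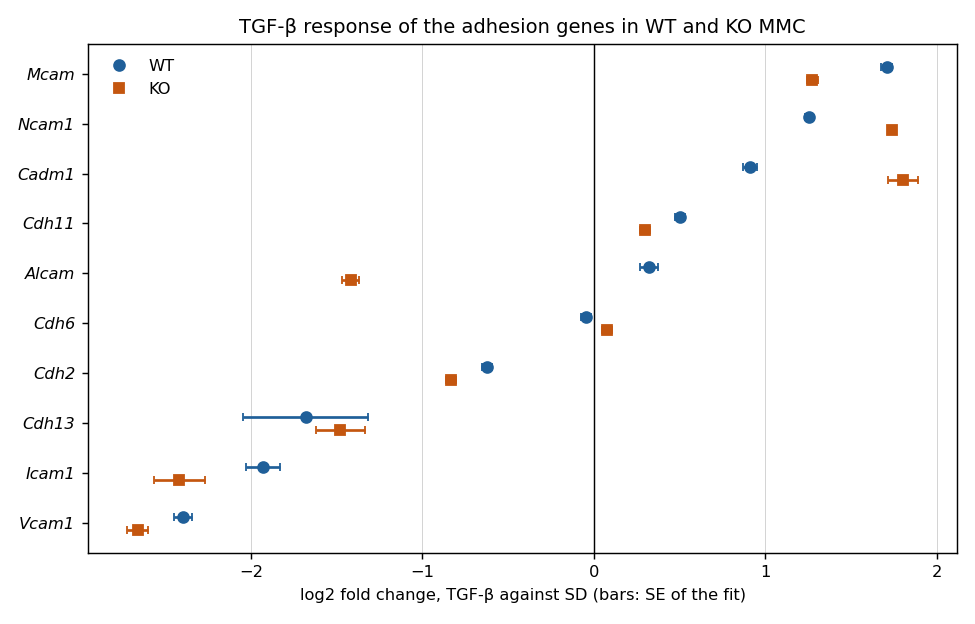
Log2 fold change of TGF-β against SD (x axis) for the 10 adhesion genes (y axis) in WT (blue circles) and KO (orange squares), with bars for the SE of the fit. Mcam, Ncam1, Cadm1 and Cdh11 lie right of 0 in both genotypes, Vcam1, Icam1, Cdh13 and Cdh2 left of it in both, and Alcam lies at 0.32 in WT and -1.42 in KO.

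The other genes of the adhesion machinery were read from 6 lists, and their counts stand against the shares of all genes given above. The medians of the lists are given in the order TGF-β in WT, TGF-β in KO, KO in SD and KO in TGF-β, for which the medians of all genes were -0.01, -0.02, 0.02 and -0.00. Of 19 other cadherins 14 had a count and 4 were tested. Cdh10 went from 12.6 to 55.8 CPM with TGF-β in WT (2.14, SE 0.06) and in KO from 22.7 to 74.5 (1.71, SE 0.05). Cdh16, the cadherin of kidney tubules, went from 27.5 to 6.13 CPM with TGF-β in WT and in KO from 2.71 to 0.53, and KO against WT was -3.34 (SE 0.11) in SD. Cdh3 (P-cadherin) was higher in KO, at 12.95 against 3.77 CPM in SD (1.78, SE 0.12). With TGF-β, Cdh3 gave -0.43 (SE 0.16) in WT, a call lost without WT-SD replicate 2 (-0.22), WT-TGF replicate 1 (-0.34) or 2 (-0.37), and -0.98 (SE 0.11) in KO. Its interaction of -0.55 (SE 0.19, adjusted p = 0.0349) was lost in 7 alternatives, those without WT-SD replicate 1 (-0.50) or 3 (-0.42), without WT-TGF replicate 3 (-0.40) and without KO-TGF replicate 1 (-0.51), 2 (-0.53) or 3 (-0.50), and DESeq2 (-0.53). In counts of genes, TGF-β raised 1 and lowered 2 of the 4 in each genotype, and KO had 3 higher and 1 lower in each condition, with medians of -0.13, -0.44, 0.86 and 0.61. The defining cadherin of epithelia, Cdh1, had 2 to 9 counts per library, Cdh4 had 0 to 6 and the endothelial Cdh5 0 to 2, so no fold is given for them.

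Catenins and junction linkers moved in both directions. Of 12, 9 were tested: TGF-β raised 4 and lowered 5 in WT and raised 4 and lowered 4 in KO, and KO had 6 higher and 2 lower in SD and 4 higher and 4 lower after TGF-β, with medians of -0.06, -0.04, 0.09 and 0.00. Jup, which encodes plakoglobin, went from 148 to 333 CPM with TGF-β in WT (1.17, SE 0.03) and in KO from 180 to 418 (1.22, SE 0.03). Ctnnb1, which encodes β-catenin and binds cadherin tails, went from 1192 to 944 CPM with TGF-β in WT (-0.34, SE 0.02) and in KO from 1182 to 836 (-0.50, SE 0.02), and did not differ past the test between genotypes in SD (-0.01, SE 0.02, adjusted p = 0.649). Ctnna1, the α-catenin that meets actin, rose by 0.39 (SE 0.02) and 0.41 (SE 0.02). Ctnnd1, the p120 catenin, was at 814 and 884 CPM in WT-SD and WT-TGF and at 875 and 854 CPM in KO-SD and KO-TGF. Vcl (vinculin) was higher in KO, at 1428 against 693 CPM in SD (1.04, SE 0.02) and at 1935 against 1100 CPM after TGF-β (0.82, SE 0.02). Ctnnal1, an α-catenin-like protein, fell with TGF-β, with log2 fold changes of -0.80 (SE 0.05) in WT and -1.56 (SE 0.06) in KO, and the difference of -0.76 (SE 0.07, adjusted p = 2.05e-09) passed the interaction test. Tjp1, the tight junction linker ZO-1, had the most positive interaction of the list among called genes, 0.13 (SE 0.04).

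Among 25 other immunoglobulin adhesion molecules 13 were tested, and TGF-β raised 7 and lowered 4 of them in each genotype, while KO had 3 higher and 6 lower in each condition, with medians of 0.14, 0.16, -0.10 and -0.07. Nectin3, a partner of the other nectins at junctions, went from 43.4 to 115 CPM with TGF-β in WT (1.40, SE 0.05) and in KO from 31.0 to 85.0 (1.46, SE 0.06). Nectin1 went from 38.7 to 68.2 CPM with TGF-β in WT and in KO from 50.6 to 95.6. L1cam, a neural and tubular adhesion molecule, went from 18.1 to 5.69 CPM with TGF-β in WT (-1.67, SE 0.09) and in KO from 9.01 to 1.08 (-3.05, SE 0.15), and Bcam, a laminin receptor, fell from 29.9 to 12.5 and from 10.1 to 2.41 CPM. Cd47, the ligand of SIRPα, had the most positive interaction among called genes, 0.15 (SE 0.05). The difference in response for L1cam was -1.38 (SE 0.19, adjusted p = 1.29e-06).

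Of 20 protocadherins and giant cadherins 8 were tested, and the response to TGF-β was lower in KO for 6 by the interaction test, where 16.6% of all genes were lower, and did not pass for the other 2. TGF-β raised 3 and lowered 3 in WT and raised 3 and lowered 4 in KO, and KO had 4 higher and 4 lower in SD and 1 higher and 6 lower after TGF-β, with medians of 0.01, -0.24, 0.10 and -0.12. Fat4, a giant cadherin of tissue polarity, went from 342 to 129 CPM with TGF-β in WT (-1.41, SE 0.03) and in KO from 447 to 125 (-1.83, SE 0.03). Pcdh18 went from 42.8 to 105 CPM with TGF-β in WT (1.29, SE 0.04) and in KO from 56.2 to 95.4 (0.76, SE 0.04). Pcdh9 fell, with log2 fold changes of -1.06 (SE 0.10) in WT and -2.14 (SE 0.15) in KO, with an interaction of -1.08 (SE 0.19), and Pcdh7 was at 276 and 236 CPM in WT without and with TGF-β and at 415 and 277 CPM in KO.

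Of 9 genes listed as leukocyte counter-receptors, most of them integrin chains, only Itgb1 was tested, and it went from 1947 to 4512 CPM with TGF-β in WT (1.21, SE 0.02) and in KO from 2356 to 5368 (1.19, SE 0.02). KO was above WT by 0.28 (SE 0.02) in SD and 0.25 (SE 0.02) after TGF-β. Itga4, the other chain of the Vcam1 receptor, had 62 to 80 counts in WT-SD, 17 to 24 in WT-TGF, 124 to 154 in KO-SD and 46 to 53 in KO-TGF. Of the chains that bind Icam1, Itgal had 23 to 33 counts in WT-SD and 1 to 3 in KO-SD, Itgam 45 to 56 in WT-SD and 0 in KO-SD, and Itgb2 28 to 42 and 20 to 36.

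Sheddases, which cut molecules off the cell surface, and the subunits of γ-secretase, which cuts within the membrane, made up the last list, and 9 of 10 were tested. TGF-β raised 3 and lowered 3 in WT and raised 6 and lowered 3 in KO, and KO had 3 higher and 1 lower in SD and 6 higher and 1 lower after TGF-β, with medians of 0.02, 0.09, 0.06 and 0.13. Mmp14, a membrane-bound matrix metalloprotease, went from 657 to 1189 CPM with TGF-β in WT (0.85, SE 0.02) and in KO from 1342 to 2107 (0.65, SE 0.02), and KO was above WT by 1.03 (SE 0.02) in SD. Its interaction was -0.20 (SE 0.03). Adam17, which sheds Vcam1 and other molecules, fell, with log2 fold changes of -0.40 (SE 0.03) in WT and -0.42 (SE 0.04) in KO. Psen2, of the γ-secretase complex, gave -0.24 (SE 0.05) with TGF-β in WT and -0.30 (SE 0.06) with TGF-β in KO, both past the test. For KO against WT Psen2 gave -0.27 in SD and -0.32 after TGF-β, the most negative of the list among called genes.

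**Figure D5:**
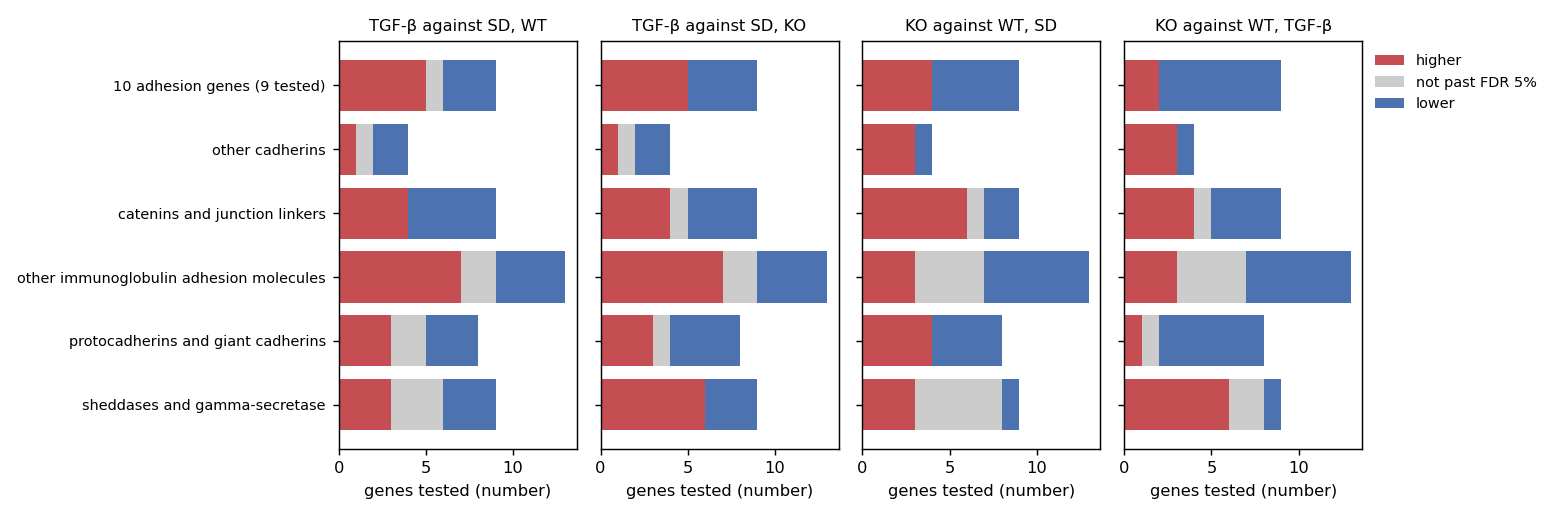
Number of tested genes (x axis) that were higher (red), not past an FDR of 5% (grey) or lower (blue) in 4 comparisons (panels) for the adhesion genes and 5 further lists (y axis). After TGF-β, KO against WT, 7 of 9 adhesion genes and 6 of 8 protocadherins and giant cadherins were lower.

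Over the 12 libraries, the gene with the most similar log2 CPM profile among about 10072 searched was, by Pearson's r, Slc6a6 for Cadm1 (0.992), Dock5 for Ncam1 (0.999), Lifr for Vcam1 (0.998), Napepld for Icam1 (0.996), Nup155 for Alcam (0.983), Slc16a3 for Mcam (0.999), Rad21 for Cdh2 (0.997), Pde4b for Cdh6 (0.995), Wwtr1 for Cdh11 (0.997) and Hoxd10 for Cdh13 (0.989). These values are descriptions: all points share the same 12 libraries in 4 groups. Among the adhesion genes themselves, Ncam1 and Cdh2 ran against each other with r of -0.994, Vcam1 and Cdh2 together with 0.976, and Cadm1 and Cdh13 against each other with -0.976. Cadm1, Ncam1, Icam1 and Mcam all lie on chromosome 9, with Ncam1 at chr9:49502129-49799393 (-), 1639848 bases from Cadm1, Icam1 at chr9:21015940-21028814 (+) and Mcam at chr9:44134658-44142727 (+). Vcam1 lies at chr3:116110020-116129688 (-), Cdh6 at chr15:13028699-13176407 (-), Cdh11 at chr8:102632095-102785493 (-) and Cdh13 at chr8:118140017-119324929 (+), all in GRCm38.p6.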

How the data were processed

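RNA-seq was done on mRNA of 12 MMC libraries, 3 per group, with the replicate numbers of the sample labels. Single-end reads of 51 bases were aligned by the authors to mm10 with TopHat and counted on RefSeq genes with HTSeq, on the strand of the gene. The deposited values are these raw counts, which are not normalized. Reads with several alignments are not in the counts and made up 11.2% to 11.7% of each library, reads outside exons 10.3% to 15.4%, so genes with near-identical copies are uncertain. 

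Counts were scaled by TMM and tested in 1 fit over all 12 libraries with 4 group means by the quasi-likelihood test of edgeR 4.0.16 (R 4.3.3), after the RPKM limit given above. Exon lengths came from the GENCODE annotation of GRCm38.p6 (24706 genes matched by symbol). CPM and RPKM use the same factors. A simulated table with known changes was used to test the scripts. Alternatives were library size alone, upper quartile scaling, DESeq2 1.42.0, the likelihood ratio test, 2 other filters, only the groups compared, a replicate block and leaving out each library.

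The members, the pathway and marker lists and the tests were chosen with earlier results of these data known. 1 marker gene is not reported here. Beside the members, the text names from each pathway list the gene with the largest rise and the largest fall per comparison among called genes whose higher group averaged 5 CPM or more and whose libraries did not overlap, plus the main catenins, classical cadherins and integrin chains. The promoter table held 4 of the 10 genes, and the windows were cut to the bases before the start.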

Additional observations from a re-analysis of the deposited data

Results flagged for a closer look

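The response to TGF-β differed between WT and KO MMC by the interaction test of edgeR for 8 adhesion genes, each as the log2 response in KO minus that in WT: Cadm1 by 0.89, Ncam1 by 0.49, Vcam1 by -0.27, Alcam by -1.74, Mcam by -0.43, Cdh2 by -0.21, Cdh6 by 0.12 and Cdh11 by -0.20, where 25.4% of all tested genes passed. For Alcam all 3 libraries of WT-TGF were above those of WT-SD and all 3 of KO-TGF were below those of KO-SD. For Cadm1 the larger log2 rise in KO went with a smaller rise in CPM, 14.3 against 59.2.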

How the results depend on the processing

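The number of adhesion genes called in each comparison and direction stayed within 1.5 times under all alternatives (297 values), and of their fold changes 951 kept direction and side of the threshold, 9 passed and 28 missed the threshold where they had not before, and 2 turned sign. With library size alone the median of all genes shifted to -0.16 (TGF-β in WT), -0.23 (TGF-β in KO), -0.05 (KO in SD) and -0.12 (KO in TGF-β), and the calls split into 2650 higher and 5997 lower, 2305 and 6662, 2446 and 4160, and 1647 and 5376, against 4125 and 4191, 4014 and 4480, 3514 and 2901, and 3127 and 3197 with TMM; for the interaction it was 687 and 2649 against 1006 and 1907. With that scaling Cdh6 turned to -0.13 for TGF-β in KO and Ctnnd1 to -0.036 for TGF-β in WT. The interaction of Cdh13 ran from -0.062 (without WT-TGF replicate 3) up to 0.65 when replicate 2 was left out, and Ctnnb1 for KO in SD gave 0.0018 with a filter on CPM and 0.018 without a filter; none of these last values passed the test. The cause was not tested. Of the fold changes of the other listed genes 1383 kept direction and side of the threshold, 24 missed it, 3 passed it and 3 turned; of the counts of called genes per list 68 moved by over 1.5 times, most of them with another filter, which tests other genes, and 1120 did not. DESeq2 lost the calls of Cdh2 for KO in SD (0.07), Cdh11 for KO in TGF-β (-0.05) and Vcam1 in the interaction (-0.24).

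The labels number the replicates alike in all groups. Correlations between same-numbered libraries, taken on deviations from the group mean, ran from -0.07 to 0.09 over 12 pairs, 0 above 0.1. These values rest on 3 libraries per group and on pairs that reuse libraries, and cannot decide whether same-numbered libraries share a culture or batch. With the replicate block 9 adhesion genes were called for TGF-β in WT in place of 8, since Cdh6 (-0.05, adjusted p = 0.0466; 1.79e-07 to 0.627 over all alternatives) passed, and no other call of an adhesion gene changed; all genes called for TGF-β in WT split into 4175 higher and 4250 lower. Depth limits Cdh13 and Icam1, which rested on as few as 3 and 24 counts in a library. The interaction has no version fitted on only the groups compared, since it uses all 4.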
